A study of Mus musculus with 18 samples.

Results

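The conventional dendritic cell (cDC) identity genes described here are Flt3, Zbtb46, Cd209a, Dpp4, Itgax, Irf4, Irf8, Batf3, Clec9a and Clec10a, 10 genes of the 13759 in the count table of metastasis-associated macrophages (MAMs). They were chosen by symbol, with their values in these same libraries already known, so their difference between the MAM subsets is described below without a test and supports nothing by itself. The MAMs came from liver metastases that formed after MC38 cells, which derive from a colon adenocarcinoma of the same strain, were injected into the spleen of C57BL/6J mice. All mice of this series were female, and the methods give an age of 8 to 10 weeks. The cells were sorted as lineage-negative CD45+CD11b+ cells with low or high surface F4/80, here called F4/80low and F4/80high, with 3 libraries of each. The same 10 genes were then read in a second table of 54309 genes from 12 libraries of type 1 lymphocytes, sorted 20 days after injection from pools of 6 to 8 samples of liver metastasis (LM) or metastasis-free liver (MFL). Its 4 populations, each with 3 libraries, were CD49a-CD49b+ NK cells of the MFL (MFL NK), CD49a+CD49b- innate lymphoid cells of the MFL (MFL ILC1), CD49a-CD49b+ NK cells of the LM (LM CD49a- NK) and CD49a+CD49b+ NK cells of the LM (LM CD49a+ NK). All groups came from wild-type mice bearing MC38 tumors, and none had a transgene or a drug treatment. Whether MAMs were pooled over mice is not given in the sources used here, and nothing ties a MAM replicate number to a separate animal, so the spread between MAM libraries may be partly technical.

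cDCs are bone marrow-derived antigen-presenting cells that depend on the cytokine FLT3L and its receptor FLT3, and that carry antigen from tissues to lymph nodes to prime T cells. They form a cDC1 lineage, which needs IRF8 and BATF3 and cross-presents antigen to CD8+ T cells, and a cDC2 lineage, in which IRF4 is prominent and which primes mainly CD4+ T cells. ZBTB46 is a repressor found in cDCs and their committed precursors, and it separates them from monocytes and macrophages better than surface proteins do. In tumor tissue CD11c, MHC class II and some of the lectins are shared by cDCs, inflammatory monocytes and macrophages, and the MAM gate names neither CD11c nor MHC class II.

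Sequences before a RefSeq start site are shown for 3 of the 4 members with the lowest F4/80high to F4/80low ratios. Flt3, the other of these, is left out because annotated exons left too little of its stretch. Stretches for Irf4 and Irf8 were available too, held no searched motif and are not shown. No annotated exon falls in the stretches printed. RefSeq promoter windows of 300 bases, from 250 before to 50 after a start site, were found for 9 of the 10 members, with 2 windows for Irf8 and none for Clec10a. Each window came from the GRCm38.p6 table and matched GRCm39 exactly once, and GRCm39 positions are given. Capitals mark the match to a searched motif, and each stretch starts 150 bases before the RefSeq start site. For Zbtb46 this start site lies within the annotated gene (chr2:181012111-181104879, minus strand). Its stretch is therefore inside the gene and not upstream of it.
Zbtb46, chr2:181066182-181066331, minus strand: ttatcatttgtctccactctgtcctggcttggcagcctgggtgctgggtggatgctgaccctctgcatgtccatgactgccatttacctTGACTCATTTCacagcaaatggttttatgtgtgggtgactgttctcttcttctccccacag
Cd209a, chr8:3798985-3799134, minus strand: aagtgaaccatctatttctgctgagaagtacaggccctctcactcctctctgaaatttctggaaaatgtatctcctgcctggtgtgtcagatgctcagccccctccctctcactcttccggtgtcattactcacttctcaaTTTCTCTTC
Dpp4, chr2:62242577-62242725, minus strand: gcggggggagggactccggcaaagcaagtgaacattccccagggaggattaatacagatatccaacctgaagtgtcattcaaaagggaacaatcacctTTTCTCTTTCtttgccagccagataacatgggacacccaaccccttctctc
In Zbtb46 the capitals hold an AP-1 motif (TGANTCA), the kind of site that BATF proteins bind with JUN, directly followed by the IRF half-site TTTC (GAAA on the other strand), which together form an adjacent AP-1 and IRF composite. This composite was found in 1 of the 10 member windows and in 0.125% of the 32851 windows of all genes. The AP-1 motif alone, which the composite contains, was found in 2 member windows, those of Zbtb46 and Itgax, and in 7.81% of all windows. Cd209a carried the ETS and IRF composite (GGAA, any 2 bases, then GAAA, here read from the other strand), 1 of 10 member windows against 2.72% of all, and its last base is the start site itself and is not printed. The Dpp4 stretch holds an interferon response-like pair of half-sites (GAAA, any 2 bases, then GAAA, again on the other strand), found in 1 of 10 member windows and in 3.44% of all. A PU.1 motif (GAGGAAGT, 3.2% of all windows) and a spaced form of the AP-1 and IRF composite (TTTC, any 4 bases, then TGANTCA, 0.119%) were found in 0 member windows. Both strands were searched, and a match describes letters in a window and not binding.

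Total counts lay between 21278959 and 32267015 per MAM library and between 8795721 and 14386834 per lymphocyte library. Levels are given as CPM, a gene's count relative to its library's total, after TMM scaling, which corrects each library for its composition. Adgre1, which encodes F4/80, was at 124, 160 and 153 CPM in the F4/80low libraries and at 901, 806 and 1167 CPM in the F4/80high libraries, in the direction of the sort. Itgam, which encodes CD11b, was at 1115 to 1569 CPM in F4/80low and 1194 to 1712 CPM in F4/80high. In bulk RNA fewer cells of a type and less RNA per cell cannot be told apart.

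Flt3, the receptor for FLT3L (chr5:147267551-147337483 of GRCm39, minus strand), was at 132, 115 and 72.3 CPM in the F4/80low libraries and at 2.61, 1.95 and 1.72 CPM in the F4/80high libraries. The groups were far apart, and the lowest F4/80low library was still many-fold above every F4/80high library. The fitted log2 fold change, F4/80high over F4/80low, was -5.69 (SE 0.28), or 51.5-fold lower. Zbtb46 (chr2:181012111-181104879, minus strand) was at 56.2, 66.6 and 42.4 CPM in F4/80low and at 1.22, 2.48 and 1.62 CPM in F4/80high. Its log2 fold change was -4.94 (SE 0.26), 30.6-fold lower. Both genes were low in F4/80high cells but not absent, with 53 to 58 counts of Flt3 and 27 to 70 of Zbtb46, above the floor of 3 counts used here for an undetected gene.

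The remaining transcription factors were Irf4, Batf3 and Irf8, and they did not behave alike. Irf4, the factor linked to cDC2s and to monocyte-derived dendritic cells (chr13:30933209-30950959, plus strand), was at 78.8, 74.7 and 44.2 CPM in F4/80low and at 7.65, 3.22 and 4.77 CPM in F4/80high, a log2 fold change of -3.68 (SE 0.33). Batf3, the partner of IRF8 in cDC1s (chr1:190830044-190841142, plus strand), was at 27.6, 24.5 and 18.3 CPM in F4/80low against 12.8, 12.1 and 12.8 CPM in F4/80high. The groups did not overlap, but the log2 fold change of -0.90 (SE 0.15) was much smaller than those of Flt3 or Zbtb46. Irf8, which drives cDC1 and also monocyte development (chr8:121463096-121485659, plus strand), was at 357, 321 and 309 CPM in F4/80low and at 301, 277 and 338 CPM in F4/80high. It was the single member whose groups overlapped, since F4/80high replicate 3 exceeded F4/80low replicates 2 and 3, and its log2 fold change was -0.11 (SE 0.10).

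Among the surface proteins, Itgax, which encodes the integrin chain CD11c (chr7:127728668-127749829, plus strand), was the most abundant member of F4/80low cells in CPM, at 952, 943 and 767 CPM. In F4/80high cells it was at 132, 117 and 69.7 CPM, below Irf8. The lowest F4/80low value was above the highest F4/80high value by a wide margin, with a log2 fold change of -3.06 (SE 0.23). Dpp4, the peptidase CD26 found on cDC1s and on lymphocytes (chr2:62159798-62242576, minus strand), was at 132, 128 and 87.2 CPM in F4/80low and at 3.47, 3.47 and 2.01 CPM in F4/80high. Its log2 fold change of -5.29 (SE 0.25) was the third most negative of the 10.

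The 3 C-type lectins are receptors for glycans or dead cells. Cd209a, a mouse relative of DC-SIGN found on cDC2s and monocyte-derived dendritic cells (chr8:3793397-3798984, minus strand), was at 141, 134 and 110 CPM in F4/80low and at 2.43, 2.55 and 0.811 CPM in F4/80high. Its log2 fold change of -6.08 (SE 0.33) was the most negative of the members. Clec10a, a galactose-type lectin of cDC2s and some macrophages (chr11:70047023-70061660, plus strand), was at 145, 124 and 126 CPM in F4/80low and at 11.6, 11.1 and 9.05 CPM in F4/80high, a log2 fold change of -3.64 (SE 0.12). Reads of Cd209a and Clec10a may be shared with close paralogs, which makes their levels uncertain. Those paralogs moved the same way, since Mgl2, the neighbor of Clec10a, fell by 4.03 (SE 0.25, adjusted p = 8.52e-06), and Cd209d and Cd209e fell by 4.83 and 5.75 on the log2 scale (adjusted p = 0.00135 and 0.000637, edgeR quasi-likelihood test with Benjamini-Hochberg adjustment). Cd209d and Cd209e had means of only 2.64 and 1.54 CPM in F4/80low. Their F4/80high counts were 0 to 5 and 0 to 2, near the floor of 3 counts, so these folds are uncertain. Where reads are shared, the same direction is not independent evidence. Clec9a, the receptor by which cDC1s sense dead cells (chr6:129385825-129401726, plus strand), was the least abundant member in F4/80low cells. It was at 13, 8.71 and 3.89 CPM there and at 2.43, 1.31 and 1.88 CPM in F4/80high, a log2 fold change of -2.20 (SE 0.43). The groups did not overlap, but F4/80low replicate 3 stood nearer to the F4/80high libraries than to F4/80low replicate 1.

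**Figure D1:**
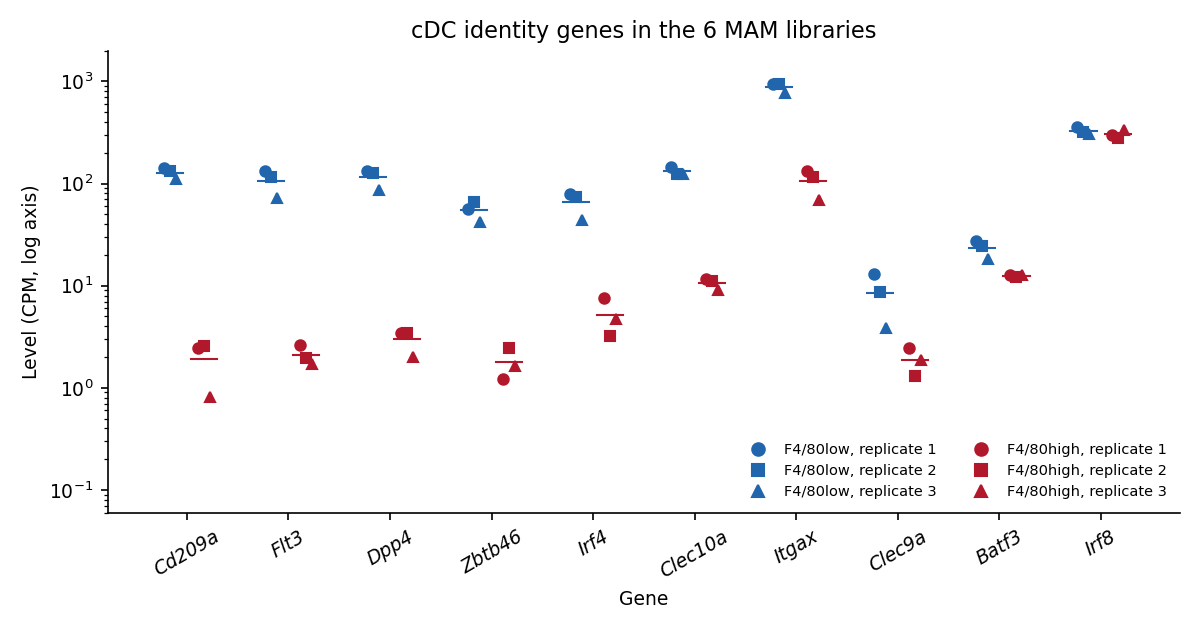
Level of each cDC identity gene in CPM on a log axis, with 1 symbol per library and a line at the mean of each group of 3 libraries. Genes are ordered by fold change, from Cd209a (log2 -6.08) to Irf8 (log2 -0.11), and the groups overlap for Irf8 alone.

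Every F4/80high library was below every F4/80low library for 9 of the 10 members, against 28.6% of all genes tested. A log2 fold change of -2 or below was found for 8 members, against 5.39% of all genes. The median log2 fold change of the members was -3.66, and that of all genes was 0.0136. These counts follow from the choice of the members and are given as a description. In the order of log2 fold changes over all 13759 genes, Cd209a stood at position 49 from the most negative, Flt3 at 66, Dpp4 at 92 and Zbtb46 at 125. Irf4 and Clec10a were at 292 and 296, Itgax at 413 and Clec9a at 664. Batf3 at 1736 was within the lowest 12.6% of the genes, and Irf8 at 5584 (40.6%) lay well inside their bulk.

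On the per-length scale, in CPM per kilobase of exon, the members of F4/80low cells ranged from 183 ± 21.5 (SD, n = 3) for Itgax to 2.59 ± 1.38 for Clec9a. Cd209a was second at 81.0 ± 10.3, Clec10a followed at 45.4 ± 3.99 and Irf8 at 33.8 ± 2.59. Flt3 (16.4 ± 4.72), Batf3 (14.7 ± 2.97), Irf4 (13.4 ± 3.86) and Dpp4 (13.2 ± 2.80) differed by less than the SD of Flt3. Zbtb46, which did not differ from Clec9a beyond the spread, was at 3.37 ± 0.743 over a long annotated exon length of 16348 bases. The order was another one in F4/80high cells. Irf8 was the highest member there at 31.4 ± 3.18 CPM per kilobase, Itgax was at 21.9 ± 6.71 and Batf3 at 7.87 ± 0.262, and the remaining 7 were at or below the 3.65 ± 0.466 of Clec10a.

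The F4/80low libraries also differed among themselves. Replicate 3 was the lowest of the 3 for 9 of the 10 members, the exception being Clec10a, whereas it was the lowest for 33.1% of all genes. Its CPM was 0.358 times the mean of replicates 1 and 2 for Clec9a, 0.576 times for Irf4, 0.585 times for Flt3, 0.672 times for Dpp4 and 0.691 times for Zbtb46. It was much closer to the other libraries for Irf8 (0.91 times) and Clec10a (0.932 times). The median ratio was 0.696 over the members and 0.992 over all genes. Other dendritic cell genes were low in the same library, with a median ratio of 0.638 over the 10 mature migratory DC genes, all of which were lowest there, and 0.743 over the 16 pan cDC genes. Genes of classical monocytes went the other way, with a median ratio of 1.32, and the library had the most RNA of Plac8 (531 CPM against 445 and 418), Chil3 (253 against 162 and 139) and Vcan (134 against 80.3 and 78.9), of which Chil3 and Vcan were picked for display after their values were seen. The 14 macrophage genes had a median ratio of 1.16. The part of this library in the differences described above was not tested, but without it the members' median log2 fold change was -3.79, against -3.66 with all libraries, and all 10 values were below 0.

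**Figure D2:**
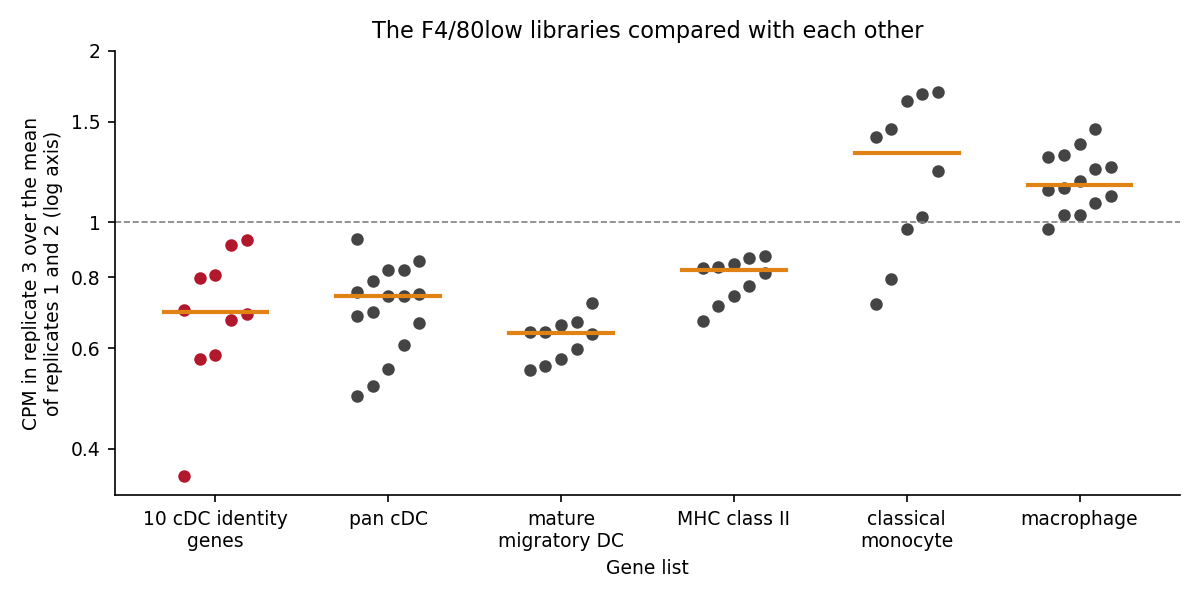
CPM in F4/80low replicate 3 divided by the mean of F4/80low replicates 1 and 2, on a log axis, with 1 point per gene and a bar at the median of each list. The members (red) have a median of 0.696 and the classical monocyte genes one of 1.32, and the dashed line marks equal levels.

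Lists of related genes, which leave out the members, gave the setting of these differences. The lists too were chosen with earlier results of these data known. Their counts and adjusted p-values are therefore not independent support. The lists were compared in one fit over all genes with edgeR's quasi-likelihood test, adjusted by Benjamini-Hochberg over all genes. A gene was called at an adjusted p under 0.1. Of all genes tested, 27.1% were called lower and 27.8% higher in F4/80high. Of 16 pan cDC genes, 15 fell and 0 rose in F4/80high, with a median log2 fold change of -3.94. They included Nectin1, an adhesion protein, at 126, 142 and 111 CPM in F4/80low and 7.61, 9.42 and 6.75 CPM in F4/80high (log2 -3.99, SE 0.15, adjusted p = 1.6e-06). Traf1, an adapter of TNF receptors, fell by 3.88 (SE 0.18, adjusted p = 2.86e-06), Ass1, an enzyme of arginine synthesis, by 2.78 (SE 0.22, adjusted p = 3.11e-05), Gpr132, a G protein-coupled receptor, by 2.61 (SE 0.21, adjusted p = 3.71e-05) and Slamf7 by 2.26 (SE 0.19, adjusted p = 4.22e-05). Adam19 was the pan cDC gene that did not pass (log2 -0.45, SE 0.25, adjusted p = 0.167), and it is named because it was the exception.

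The cDC1 and cDC2 lists were more mixed. Of 15 cDC1 genes tested, 9 fell and 4 rose, with a median log2 fold change of -0.96. Wdfy4, which is needed for cross-presentation, was at 686, 828 and 542 CPM in F4/80low and 211, 186 and 266 CPM in F4/80high (log2 -1.63, SE 0.18, adjusted p = 0.000187). Id2, a regulator that cDC1s share with lymphoid cells, fell by 0.99 (SE 0.16, adjusted p = 0.00137) and Naaa, a lysosomal amidase, by 0.88 (SE 0.17, adjusted p = 0.00285). The 4 that rose were Cadm1 (2.83, adjusted p = 6.14e-06), Tlr3 (0.96, adjusted p = 0.00367), Rab7b (0.82, adjusted p = 0.000125) and Ppt1 (0.65, adjusted p = 0.00104), of which Cadm1 and Tlr3 are named after their values were seen. The most restricted cDC1 marker, the chemokine receptor Xcr1, was at 2.53, 4.13 and 0.605 CPM in F4/80low and 1.76, 0.850 and 2.01 CPM in F4/80high. Its groups overlapped, and it did not pass (log2 -0.67, SE 0.61, adjusted p = 0.40). Of 15 cDC2 genes tested, 13 fell and 2 rose, with a median of -2.03. Klf4 and Notch2, regulators of cDC2 subsets, fell by 1.82 (SE 0.35, adjusted p = 0.0033) and 0.97 (SE 0.15, adjusted p = 0.000926). Sirpa, the receptor for CD47 that macrophages also carry, rose by 0.37 (SE 0.10, adjusted p = 0.013), and Clec4a2, a lectin of myeloid cells, rose by 0.63 (SE 0.15, adjusted p = 0.0101).

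Upstream of the members, 9 of 15 genes of the FLT3 axis and dendritic cell development fell and 3 rose, with a median of -0.56. Flt3l, which encodes the ligand of FLT3, was at 16.8, 14.9 and 14.0 CPM in F4/80low and 9.68, 8.01 and 10.4 CPM in F4/80high (log2 -0.70, SE 0.14, adjusted p = 0.0043). This change was far smaller than that of its receptor, whose own difference is given without a test. Csf2rb and Csf2ra, the chains of the GM-CSF receptor, fell by 2.02 (SE 0.13, adjusted p = 9.41e-06) and 1.03 (SE 0.09, adjusted p = 6.04e-05). Spi1, which encodes PU.1, fell by 0.56 (SE 0.08, adjusted p = 0.000669), and Rbpj, the nuclear effector of Notch, did not pass (log2 -0.21, SE 0.12, adjusted p = 0.165). Csf1r, the receptor of the macrophage growth factor, rose by 0.64 (SE 0.16, adjusted p = 0.00992).

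In the families of the 3 IRF and BATF members, 11 of the 12 other genes fell and 0 rose, with a median of -0.62, so most changes were small. The AP-1 partners Junb and Jun fell by 1.37 and 0.59 (adjusted p = 0.00037 and 0.0241), and Jund was 2.43-fold lower (adjusted p = 0.000745). Irf5, a factor of inflammatory myeloid cells, fell by 1.07 (SE 0.08, adjusted p = 2.12e-05), from 547, 568 and 560 CPM to 273, 257 and 266 CPM. The interferon pathway factors Irf2, Irf7, Irf9, Irf1 and Irf3 fell by 0.83, 0.65, 0.56, 0.48 and 0.22, with adjusted p from 0.000123 for Irf2 to 0.0623 for Irf3. Batf, the relative of Batf3, fell by 0.44 (SE 0.13, adjusted p = 0.0214), and Batf2 did not pass (log2 -0.34, SE 0.19, adjusted p = 0.178).

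All 10 MHC class II genes fell, with a median of -2.79. H2-Ab1, a chain of the I-A molecule, was at 9580, 7576 and 7252 CPM in F4/80low and at 1509, 813 and 1015 CPM in F4/80high (log2 -2.87, SE 0.24, adjusted p = 4.08e-05), so F4/80high cells still held it at a high level. Cd74, the invariant chain, fell by 2.54 (SE 0.22, adjusted p = 5.03e-05), and H2-Aa, H2-Eb1 and H2-DMb1 fell by 2.71, 2.71 and 2.23. All 10 genes of mature migratory dendritic cells fell as well, with a median of -4.96. Ccr7, the receptor that guides dendritic cells to lymph nodes, was at 323, 165 and 146 CPM in F4/80low and at 5.72, 0.992 and 3.11 CPM in F4/80high (log2 -6.05, SE 0.56, adjusted p = 6.87e-05). The chemokine gene Ccl17 fell by 6.45 (SE 0.28, adjusted p = 2.05e-06), Ccl22 fell by 6.36 (SE 0.26, adjusted p = 1.81e-06), and the actin-bundling gene Fscn1 fell by 3.23 (SE 0.35, adjusted p = 0.000159). Tmem123 fell by 1.22 (SE 0.16, adjusted p = 0.000452).

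**Figure D3:**
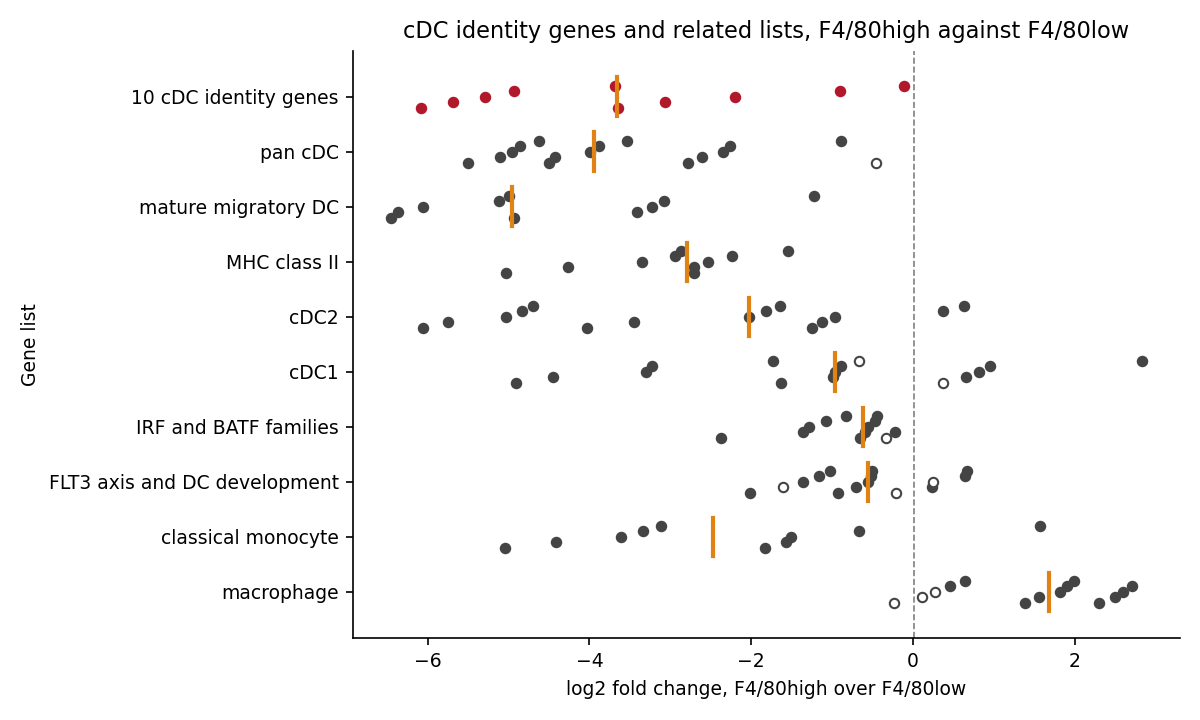
Fitted log2 fold change, F4/80high over F4/80low, of each gene, with 1 row per list and an orange bar at the list median. Filled grey points passed at an adjusted p under 0.1 and open points did not, the members (red) carry no test, and the dashed line is the median of all genes at 0.0136. The macrophage list lies mostly above 0, with a median of 1.69, and the dendritic cell lists mostly below.

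Markers of other cells moved between the same libraries, and their part in the differences of the members was not tested. Of 14 macrophage genes, 11 rose and 0 fell in F4/80high (median 1.69). Their summed level was 12840 to 16620 CPM in F4/80low and 30100 to 41590 CPM in F4/80high, so RNA of these genes was present in the F4/80low libraries too. The largest F4/80low means were those of Lyz2 (5307 CPM), Apoe (2756 CPM) and Csf1r (1892 CPM). Which cells of the sorted population held this RNA was not tested. Of 10 classical monocyte genes, 9 fell and 1 rose (median -2.48), with sums of 7530 to 10530 CPM in F4/80low and 4232 to 5772 CPM in F4/80high. The NK cell list summed to 117 to 192 CPM in F4/80low and 6.41 to 12.7 CPM in F4/80high, and 5 of its 7 genes fell. In F4/80low cells most of this sum came from Klrk1 (78.0 ± 22.3 CPM, SD, n = 3) and Klrd1 (61.4 ± 7.64 CPM), while Gzma, Nkg7, Prf1, Klrb1c and Eomes had means of 0.898 to 5.95 CPM. Of 8 plasmacytoid dendritic cell genes, 5 fell and 2 rose, with sums of 257 to 266 CPM in F4/80low and 295 to 337 CPM in F4/80high that consisted mostly of Bst2. The neutrophil list summed to 99.1 to 205 CPM in F4/80low and 74.0 to 105 CPM in F4/80high, 7 of 8 genes fell, and Ngp was at 51.4 CPM in F4/80low replicate 1 against 1.30 and 5.06 CPM in the other F4/80low libraries. Of 5 Kupffer cell genes 1 fell and 3 rose, of 8 B cell genes 0 fell and 1 rose, of 8 T cell genes 1 fell and 0 rose, and of 4 endothelial genes 2 fell and 1 rose. None of the 3 hepatocyte genes passed, and Cdh1, the single gene of the epithelial list in the table, fell by 4.66 (SE 0.19, adjusted p = 1.94e-06). It was at 189 to 264 CPM in F4/80low, but the other 5 genes of its list were absent from the MAM counts. Cdh1 alone therefore does not identify epithelial cells here.

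The type 1 lymphocyte libraries were not used to choose the members, so there the members could be tested. They were made with another kit and normalized apart from the MAMs, and levels are not compared across the tables. Of the 10 genes, 6 passed the low-count filter, namely Irf8, Itgax, Zbtb46, Irf4, Dpp4 and Batf3. Clec9a had 0 counts in all 12 libraries, which allows at most 0.208 to 0.341 CPM per library at a floor of 3 counts, for counting error only. Cd209a had 14 counts in a single library, LM CD49a+ NK replicate 3, Clec10a had at most 4 counts in any library, and Flt3 reached 19 counts in the same LM CD49a+ NK library and at most 4 elsewhere. Flt3 and the 3 lectins were therefore at or near the floor in nearly all NK cell and ILC1 libraries.

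Irf8 was the member with a called difference. MFL NK cells had 1297, 1135 and 1176 CPM of it. The MFL ILC1 libraries, at 173, 113 and 97.5 CPM, all lay below them. The log2 fold change of MFL ILC1 over MFL NK was -3.24 (SE 0.38, adjusted p = 4.95e-05, edgeR quasi-likelihood test, Benjamini-Hochberg adjusted), and 1 of the 6 tested members was called, against 3.06% of all 13594 genes. In the LM the values were 1667, 1004 and 2970 CPM in CD49a- NK cells and 967, 764 and 1684 CPM in CD49a+ NK cells. CD49a+ NK cells were the lower of each same-numbered pair, and replicate 3 was the highest in both groups. The LM groups overlapped, and the difference did not pass (log2 -0.72, SE 0.35, adjusted p = 0.442, edgeR), nor did that between LM CD49a- NK and MFL NK cells (log2 0.64, SE 0.35, adjusted p = 0.785, edgeR). Without LM CD49a- NK replicate 3 these values were -0.23 and 0.14, and the first was -1.12 without LM CD49a+ NK replicate 3. In both comparisons 0 of the 6 members were called, against 0.14% and 0.0736% of all genes, where 1579 and 914 of the 13594 genes had an unadjusted p under 0.05.

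The Irf8 difference between the CD49a+ and CD49a- populations was itself compared between the sites. The CD49a+ cells are not alike, since those of the MFL are CD49b- ILC1 and those of the LM are CD49b+ NK cells, so cell type, CD49a and site cannot be told apart in this comparison. The difference of LM CD49a+ over CD49a- NK cells minus that of MFL ILC1 over MFL NK cells was 2.51 on the log2 scale (SE 0.51, adjusted p = 0.0277, edgeR), and 1 of 6 members was called in this interaction, against 1.03% of all genes. The order of the Irf8 means was LM CD49a- NK (1880 ± 1000 CPM, SD, n = 3), MFL NK (1203 ± 84.1), LM CD49a+ NK (1138 ± 483) and MFL ILC1 (128 ± 39.7), and the first 3 lay within the spread of the LM groups. The LM libraries were prepared from metastases and the MFL libraries from parenchyma, by different dissociation, so site and dissociation cannot be told apart either. Over the 12 libraries, the genes whose log2 CPM was most like that of Irf8 among 13594 genes were Serpinb9b (Pearson r = 0.981), Atp11b (r = 0.976), Ifngr1 (r = 0.976), Eomes (r = 0.969) and Pfkp (r = 0.968). The libraries share 4 populations, of which MFL ILC1 is the low one, so these correlations describe that contrast. Eomes, the T-box factor of NK cells, was at 20.3 ± 17.5 CPM in MFL ILC1 against 668 ± 91.2 CPM in MFL NK cells.

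Itgax was expressed throughout, since CD11c is also carried by mouse NK cells. The MFL NK libraries held 451, 500 and 477 CPM, those of MFL ILC1 658, 726 and 803 CPM, and the LM libraries held 520, 398 and 327 CPM (CD49a- NK) and 391, 414 and 372 CPM (CD49a+ NK). The MFL ILC1 libraries were above all others, but the difference from MFL NK cells did not pass (log2 0.62, SE 0.21, adjusted p = 0.206, edgeR), nor did the interaction (log2 -0.70, SE 0.30, adjusted p = 0.525, edgeR). Zbtb46 was low and uneven, with 5.31, 6.63 and 9.76 CPM for MFL NK libraries against 0, 4.68 and 5.59 CPM for MFL ILC1. In the LM it was at 11.6, 12.6 and 75.0 CPM in CD49a- and 4.74, 14.3 and 42.7 CPM in CD49a+ NK cells, where replicate 3 of each group stood far above the others. None of its differences passed (LM CD49a- NK over MFL NK, log2 2.19, SE 1.22, adjusted p = 0.789, edgeR, and log2 0.73 without LM CD49a- NK replicate 3). Irf4 lay between 0 and 8.27 CPM, Dpp4 between 0 and 7.94 CPM and Batf3 between 0 and 4.35 CPM, each with libraries at 0 counts, and none of their differences passed. The counts were uneven within groups, as for Irf4 with 0, 0 and 102 counts in LM CD49a- NK cells.

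**Figure D4:**
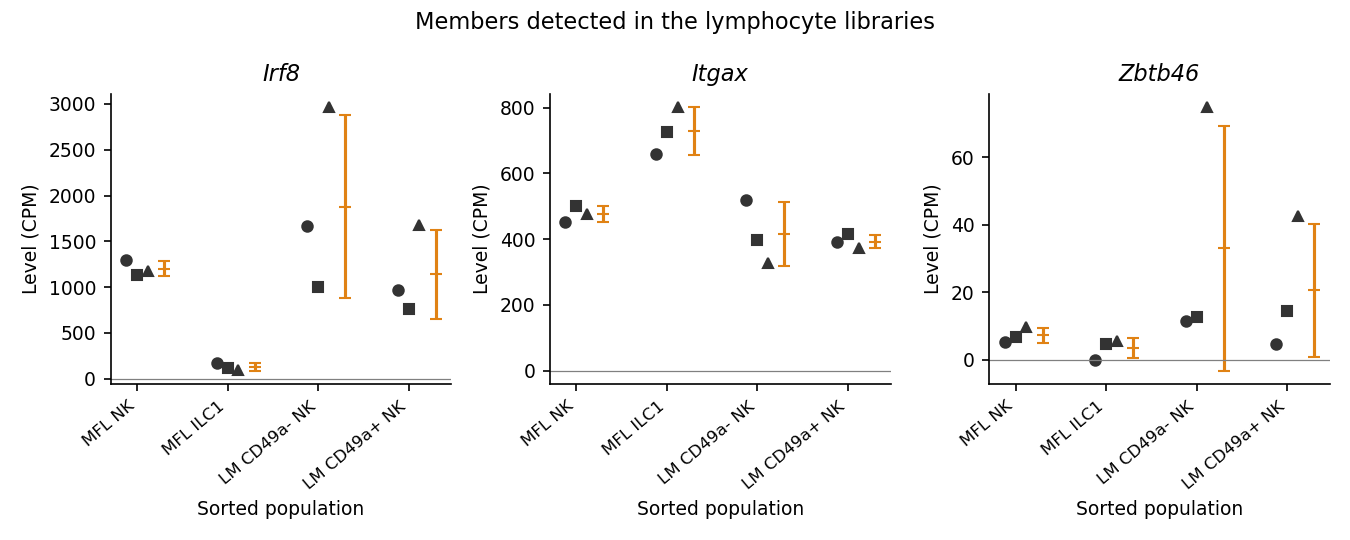
Level in CPM of Irf8, Itgax and Zbtb46 in the 4 lymphocyte populations, with circles, squares and triangles for replicates 1, 2 and 3 and the mean ± SD (n = 3) in orange. Irf8 is lowest in MFL ILC1 (97.5 to 173 CPM), where Itgax is highest (658 to 803 CPM), and the Zbtb46 value of 75.0 CPM comes from LM CD49a- NK replicate 3.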

How the data were processed

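Sorted cells were profiled by bulk RNA-Seq. The deposited values of both tables are estimated counts per gene without normalization, already whole numbers. Per the submitters' processing notes the authors used Trim Galore, Salmon v1.10.0 for the MAMs and v1.5.0 for the lymphocytes, R v4.3.1, DESeq2 v1.40.2 and v1.40.24, and GRCm39. For the lymphocytes the methods add GENCODE M27, tximport v1.28.0 and stranded total RNA libraries, and for the MAMs the labels give a directional poly(A) kit. The MAM table holds 13759 genes with a total of at least 37 counts, so genes below that were not analysed here. Salmon divides reads between similar transcripts, which can move counts between paralogs.

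GENCODE vM39 named 13726 of 13759 and 53700 of 54309 gene IDs. Genes were kept by filterByExpr (all 13759 MAM and 13594 lymphocyte genes), scaled by TMM and tested with edgeR v4.0.16 in R v4.3.3, in one fit per table, with Benjamini-Hochberg adjustment over all genes and calls under 0.1. SEs are the log2 fold change divided by the square root of F and are approximate. Alternatives were RLE size factors, DESeq2 v1.42.0, another filter, the replicate number as a block, and each library left out. The fits were tested on simulated data. With 3 libraries against 3 the smallest exact permutation p is 0.1. Figures used Python v3.11.15 and matplotlib v3.10.9.

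The members and all gene lists (cDC1, cDC2, pan cDC, FLT3 axis and dendritic cell development, IRF and BATF families, MHC class II, mature migratory DC, and markers of other cells) were chosen with earlier results of these data known. Named genes are all members, the IRF and BATF list (except 1 gene that is not reported here), the 5 genes of each other list with the highest mean CPM over the MAM libraries, Xcr1, Sirpa, Flt3l, Adgre1, Itgam, H2-Ab1 and Ccr7, and the 5 genes most like Irf8. Others were named after their values were seen. Same-numbered libraries were checked for shared deviations from their group means. Correlations were 0.0134 to 0.251 over 3 same-numbered MAM pairs, against -0.179 to 0.147 over 6 pairs with different numbers. For the lymphocytes they were -0.0943 to 0.061 over 18 pairs, against -0.0998 to 0.0649 over 36. The paper gives 3 independent sortings for the lymphocytes, so same-numbered libraries may share a sorting, which these correlations cannot exclude. The main fits did not pair by number, and the replicate block was run as an alternative.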

Additional observations from a re-analysis of the deposited data

Results flagged for a closer look

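The Irf8 difference between CD49a+ and CD49a- cells was not the same in metastases and in metastasis-free liver, where the CD49a+ cells are CD49b+ NK cells and CD49b- ILC1, so cell type and site cannot be told apart. The log2 change of LM CD49a+ over LM CD49a- NK cells minus that of MFL ILC1 over MFL NK cells was 2.51 (SE 0.51, adjusted p = 0.0277, edgeR quasi-likelihood test with Benjamini-Hochberg adjustment). All 3 MFL ILC1 libraries were below all 3 MFL NK libraries, whereas the LM groups overlapped, although LM CD49a+ NK was the lower of each same-numbered pair.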

How the results depend on the processing

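In the MAMs, RLE size factors, DESeq2, a filter of 1 CPM in 3 libraries, the replicate block and each library left out kept the members' median log2 fold change between -3.88 and -3.55 and every list's count of fallen genes within 1.5 times its value. With the replicate block the members' median was -3.66, and the block changed no call of a member in the lymphocytes. There DESeq2 called 2 members between MFL ILC1 and MFL NK cells, adding Itgax (log2 0.65, adjusted p = 0.0422), and the cause was not tested. The adjusted p of Irf8 lay between 6.67e-35 and 0.000455 in that comparison and between 3.99e-11 and 0.0831 in the interaction over all alternatives. With 1 library left out, the uncalled log2 change of Irf8 ranged from 0.14 to 0.94 between LM CD49a- and MFL NK cells (0.14 without LM CD49a- NK replicate 3) and from -1.12 to -0.23 between LM CD49a+ and CD49a- NK cells (-1.12 without LM CD49a+ NK replicate 3 and -0.23 without LM CD49a- NK replicate 3). That of Itgax between LM CD49a+ and CD49a- NK cells ranged from -0.23 to 0.11 (0.11 without LM CD49a- NK replicate 1). That of Zbtb46 ranged from -1.79 to 0.76 (0.76 without LM CD49a- NK replicate 3), and its interaction from -0.71 to 1.85, below 0 without LM CD49a+ NK replicate 3, MFL ILC1 replicate 1 or LM CD49a- NK replicate 1, so their direction rests on single libraries. Without LM CD49a- NK replicate 3, Zbtb46 between LM CD49a- and MFL NK cells was 0.73. Counts over all genes were unstable in the lymphocytes. DESeq2 called 667, 161, 543 and 349 genes in the 4 comparisons in the order of MFL ILC1, LM CD49a- NK, LM CD49a+ NK and the interaction, where edgeR called 416, 10, 19 and 140, or 158, 200 and 264 in the last 3 without a low-count filter. With 1 library left out, edgeR called 268 to 562, 1 to 110, 5 to 267 and 75 to 256 genes, and the highest of the last 3 came without LM CD49a- NK replicate 3. In the lymphocytes Irf4, Dpp4, Batf3, Flt3, Cd209a, Clec9a and Clec10a have libraries at 0 counts, which leaves no usable fold. Zbtb46 also had 0 counts in MFL ILC1 replicate 1, so its fold between MFL ILC1 and MFL NK cells and its interaction are uncertain.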
